A study of Mus musculus with 2 samples.

Results

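The cells described here are 242 neurons of the embryonic day 18 (E18) mouse cortex, picked by markers of layer 5, the layer whose large neurons send axons out of the cortex. A cell had to have 500 or more genes, at most 10% of its UMIs (counted mRNA molecules) from mitochondrial genes and 3 or more UMIs of Neurod2 and Neurod6 together, transcription factor genes of cortical excitatory neurons. It also had to show 2 or more of the 5 genes Fezf2, Etv1, Rprm, Grp and Tshz2, and at most 1 of Hs3st4, Syt6, Nxph3, Rorb and Inhba, genes of layers 6 and 4 and of young upper-layer neurons. Cells with 2 or more of the layer 6 genes Tle4, Hs3st4, Syt6, Nxph3 and Crym were left out. The 242 cells were 12.06% of the 2006 E18 cells with enough Neurod2 and Neurod6 (95% interval 10.7 to 13.6), 9.20% of the 2631 E18 cells past the filters, and came from a series of 5700 cell barcodes. Since measured values of these 14 genes chose the cells, those genes are described below and support nothing.

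The label given to these cells, layer 5 subcerebral projection neurons, was borne out in part. Of 17 compared subcerebral genes outside the rule, 10 were 1.5-fold or more higher than in the other Neurod2 and Neurod6 cells and 2 lower. The higher ones included Ldb2, S100a10, Nefl, Nefm and Diaph3, and the lower ones were Pcp4 and Igfbp4. The upper-layer genes Cux1 and Cux2 were lower. Lmo4, not a gene of the subcerebral list, was also higher. Within the set it stood at 1380 CPM in cells with Grp and no Fezf2 UMI, which had 0 Bcl11b UMIs. It stood at 696 CPM in cells with Fezf2 and no Grp UMI. Against layer 6 marker cells, 4 of 19 subcerebral genes were higher and 9 lower. Bcl11b, the defining transcription factor gene of subcerebral neurons, was found in 58 of the 242 cells and stood below its level in layer 6 marker cells. Clustering without the genes of the rule also placed the cells in several groups, and most Nefl and S100a10 UMIs of the set lay in 1 of them. The cells are therefore called layer 5 marker cells, after the rule.

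The series used single-cell RNA sequencing of polyadenylated RNA to follow the dorsal ventricular-subventricular zone (V-SVZ), the germinal layer beside the lateral ventricle, across birth. The E18 library was made from CD1 mice, from cortex and the dorsal V-SVZ beneath it. The postnatal day 2 (P2) library was made from the dorsal and lateral V-SVZ, without cortex, of Emx1Cre;R26Eyfp fl/fl mice, in which Cre driven from the Emx1 locus marks the cortical lineage with EYFP. Papain was used to dissociate both, and sorting kept nucleated (DRAQ5-positive) cells that excluded propidium iodide. With 1 library at each age, no value below has a replicate or a test. Every interval is 95% and covers counting error only. How many animals each library pooled is not stated in the labels.

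Excitatory neurons of the cortex fall into classes by the target of their axon. Subcerebral neurons of layer 5 reach the brainstem and spinal cord, corticothalamic neurons of layer 6 reach the thalamus, and callosal neurons, most of them in the upper layers, cross to the other hemisphere. Fezf2 promotes the subcerebral fate and acts through Bcl11b (also called Ctip2). Layer 5 itself holds both subcerebral and callosal or corticostriatal neurons, and many of its young cells express genes of both programs before birth.

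The E18 library had 19986915 UMIs over 2922 barcodes, of which 2631 passed the filters, and it shared 0 barcodes with the P2 library. The layer 5 marker cells held 2700822 UMIs and the 1764 other Neurod2 and Neurod6 cells 12960420. A layer 5 marker cell had a median of 10221 UMIs (range 2089 to 36564), against 6669 in the other cells. A rule that asks for several detected genes picks deeper cells, so levels are given below as CPM, UMIs of a gene scaled by all UMIs of a group to a total of 1e6, and shares of cells also after thinning each cell to 3000 UMIs. Thinning kept 241 of 242 layer 5 marker cells and 1722 of 1764 others. When the thinning was done before the rule, 116 cells passed it.

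Fezf2 and Rprm carried most of the selection. Rprm, which encodes a p53-induced cell cycle inhibitor, had a UMI in 192 cells and the zinc finger gene Fezf2 in 160. Grp, the gene of gastrin-releasing peptide, had one in 107 cells, the ETS factor gene Etv1 in 65 and the teashirt zinc finger gene Tshz2 in 41. Exactly 2 of the 5 markers were found in 177 cells, 3 in 50, 4 in 14 and all 5 in 1. The commonest combinations were Fezf2 with Rprm in 60 cells, Rprm with Grp in 48, and all of Fezf2, Rprm and Grp in 27. Of the limit genes, 1 was found in 85 of the layer 5 marker cells, and Tle4 was found in 24.

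Levels of these selecting genes were as follows. Fezf2 stood at 163 CPM in layer 5 marker cells and 47.1 CPM in the others, and Grp at 111 and 12.2 CPM. Rprm stood at 448 CPM in layer 5 marker cells and 205 CPM in the others, Etv1 at 64.4 and 18.1 CPM, and Tshz2 at 87.8 and 17.9 CPM. The layer 6 marker cells, 178 E18 cells with 2 or more of Tle4, Hs3st4, Syt6, Nxph3 and Crym, had more of several layer 5 markers: 283 CPM of Fezf2, 915 CPM of Rprm and 104 CPM of Etv1. Grp, at 26.3 CPM in layer 6 marker cells, stood below its level in the layer 5 marker cells.

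Each marker was also compared with its own part in the rule dropped, in cells chosen on the other 4. Those 4 markers and the exclusions of the rule still chose the cells, and the rest held the cells that the exclusions removed. The ratios below are therefore a description and no independent reading of the markers. Fezf2 then stood at 141 CPM in 142 cells so chosen and 58.1 CPM in the rest, a log2 ratio of 1.28 (1.07 to 1.49). The ratio was 1.68 (1.39 to 1.97) for Grp, 1.28 (0.97 to 1.59) for Etv1, 1.15 (0.85 to 1.45) for Tshz2 and 0.61 (0.47 to 0.75) for Rprm. The cells chosen this way for Fezf2 were also deeper, with a median of 11038 UMIs, against 6739.5 in the rest.

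The rule has a threshold at 2 markers, and the levels of genes outside the rule differed across it. The 177 cells just inside it stood at 78.8 CPM of Bcl11b, 999 CPM of Lmo4 and 72.9 CPM of Cux1. The 517 cells just outside it, with 1 marker and not held back as layer 6 or limit-gene cells, stood at 22.4, 420 and 248 CPM of the same genes. Farther inside, the 50 cells with 3 markers stood at 127 CPM of Bcl11b, 1217 CPM of Lmo4 and 34.1 CPM of Cux1, and the 14 cells with 4 at 186, 1060 and 15.5 CPM of the same genes. The 924 cells without a marker had 25.02 CPM of Bcl11b, about as much as those with 1.

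**Figure D1:**
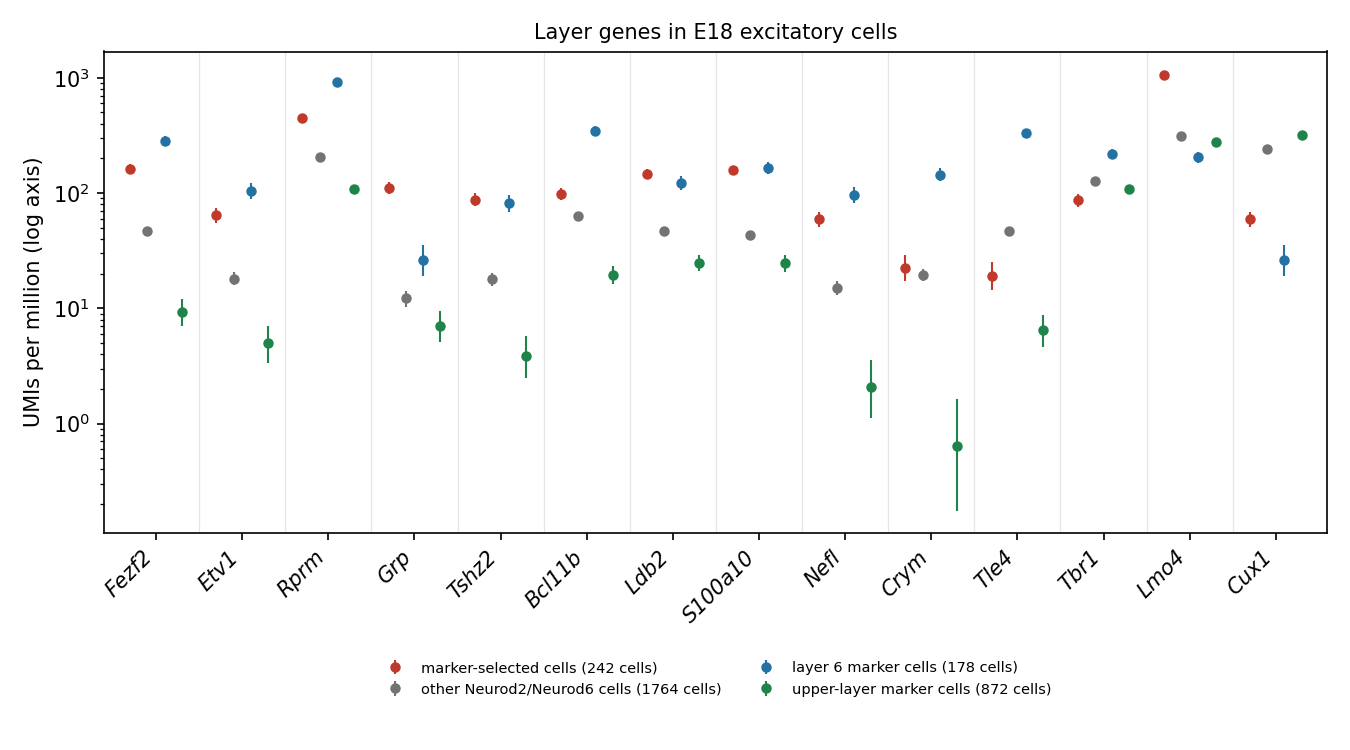
Levels of 14 layer genes (CPM, log axis) in layer 5 marker cells, other Neurod2 and Neurod6 cells, layer 6 marker cells and upper-layer marker cells, with 95% Poisson bars. Bcl11b stands at 97.7, 63.2, 349 and 19.6 CPM, and Lmo4 at 1053, 314, 205 and 275 CPM.

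Subcerebral genes outside the rule were mostly higher in layer 5 marker cells than in the 1764 other Neurod2 and Neurod6 cells. Genes were compared where the mean of both groups reached 10 CPM, and a gene was called at a ratio of 1.5-fold or more, whatever its interval. Of the 22 subcerebral genes, 17 were compared, 10 were called higher and 2 lower, with a median log2 ratio of 0.72. Over all 7975 genes compared, 4.35% were called higher and 5.35% lower, with a median of -0.06. Without the layer 6 marker cells among the others, 10 were called higher and 3 lower, with a median of 1.30, and the ratio was 2.61 for S100a10, 4.18 for Nefl and 2.87 for Nefm. The 5 genes too low to compare were Chst8, Cntn6, Fam84b, Foxo1 and Parm1.

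Bcl11b (chromosome 12, 107910403 to 108003602, GRCm38), whose product is required for corticospinal axons to grow out, stood at 97.7 CPM (86.3 to 110) in layer 5 marker cells and 63.2 CPM (58.9 to 67.7) in the others. Its log2 ratio was 0.63 (0.42 to 0.83), just past 1.5-fold. Without the layer 6 marker cells, which are among the others and had 349 CPM of Bcl11b, the ratio was 2.16 (1.90 to 2.41). It was found in 24% of layer 5 marker cells and 16.5% of the others, or 15.4% and 11.6% after thinning. Inhibitory cells of the same library, a lineage known to express Bcl11b, had it in 62.6%, at a median of 5285 UMIs per cell.

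Ldb2 (chromosome 5, 44472132 to 44799680), which encodes a partner of LIM domain proteins, showed a wider difference. It stood at 147 CPM (133 to 162) in layer 5 marker cells and 47.1 CPM (43.4 to 51.0) in the others, a log2 ratio of 1.64 (1.46 to 1.83). It was found in 142 layer 5 marker cells, 58.7%, against 17.8% of the others and 3.03% of inhibitory cells. After thinning the shares were 26.6% and 9.23%.

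S100a10 (chromosome 3, 93555080 to 93564643), which encodes the partner of annexin A2, stood at 157 CPM in layer 5 marker cells and 43.3 CPM in the others, a log2 ratio of 1.86 (1.68 to 2.05). The neurofilament genes Nefl and Nefm, whose proteins fill large axons, stood at 59.2 and 40.0 CPM in layer 5 marker cells and 15 and 12 CPM in the others. Their ratios were 1.98 (1.67 to 2.29) for Nefl and 1.73 (1.36 to 2.10) for Nefm. Of the 160 Nefl UMIs of the layer 5 marker cells, 122 lay in 58 cells of 1 cluster, described below. The same 58 cells held 330 of the 425 S100a10 UMIs. The formin gene Diaph3 stood at 49.99 CPM in layer 5 marker cells and 16.4 CPM in the others, a ratio of 1.61 (1.29 to 1.93). Tcerg1l had a ratio of 2.80 (2.13 to 3.49) but was found in 14 layer 5 marker cells, and 3 of them held 45.8% of its UMIs.

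The other called genes of the list were less far apart. The sulfatase gene Sulf2 had a ratio of 1.19, Crim1, whose product acts in corticospinal axon extension, 0.80, and the homeobox gene Otx1 0.72. Sox5, which times the making of deep-layer neurons, stood at 70.7 CPM in layer 5 marker cells and 58.7 CPM in the others and was not called (0.27, 0.03 to 0.50). The layer 6 marker cells among the others had 266 CPM of Sox5, and without them its ratio was 1.30 (1.04 to 1.56). The calmodulin regulator gene Pcp4 went the other way, with 64.8 CPM in layer 5 marker cells and 134 CPM in the others (-1.04, -1.28 to -0.82), as did Igfbp4 at -0.84.

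Of 12 compared genes of the upper-layer callosal program, 6 were called lower in layer 5 marker cells, 1 higher and 5 neither, with a median of -0.60. The homeobox gene Cux1 stood at 59.2 CPM (50.4 to 69.2) in layer 5 marker cells and 239 CPM (230 to 247) in the others, a ratio of -2.01 (-2.25 to -1.78). Its relative Cux2 stood at 17.0 CPM in layer 5 marker cells and 105 CPM in the others (-2.62). The ephrin receptor gene Epha3 stood at 21.8 and 137 CPM (-2.65), and the netrin receptor gene Unc5d at 36.7 and 111 CPM (-1.60), layer 5 marker cells before others in each case. The POU factor genes Pou3f2 and Pou3f3 had ratios of -1.11 and -0.72. Dkk3, which encodes a secreted protein of the Dickkopf family, was the gene called higher, with 48.9 CPM in layer 5 marker cells and 21.7 CPM in the others.

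Lmo4 was the most abundant of the 12 genes that ranked highest. Lmo4 (chromosome 3, 144188530 to 144205220) encodes a LIM-only cofactor of transcription and stood at 1053 CPM in layer 5 marker cells, 314 CPM in the others, 205 CPM in layer 6 marker cells and 275 CPM in upper-layer marker cells. The log2 ratio to the others was 1.74 (1.68 to 1.81). It was found in 82.2% of layer 5 marker cells and 60.3% of the others, or 65.1% and 40.4% after thinning, with 36.4% in inhibitory cells before thinning. Among 20 regulators of layer fate, 3 were called higher and 3 lower. The forkhead gene Foxp1 was higher with 246 CPM in layer 5 marker cells and 153 CPM in the others (0.69). The zinc finger gene Bcl11a stood at 315 CPM in layer 5 marker cells and 575 CPM in the others (-0.87), the LIM homeobox gene Lhx2 at 110 and 225 CPM (-1.03) and the nuclear factor gene Nfib at 582 and 1100 CPM (-0.92).

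**Figure D2:**
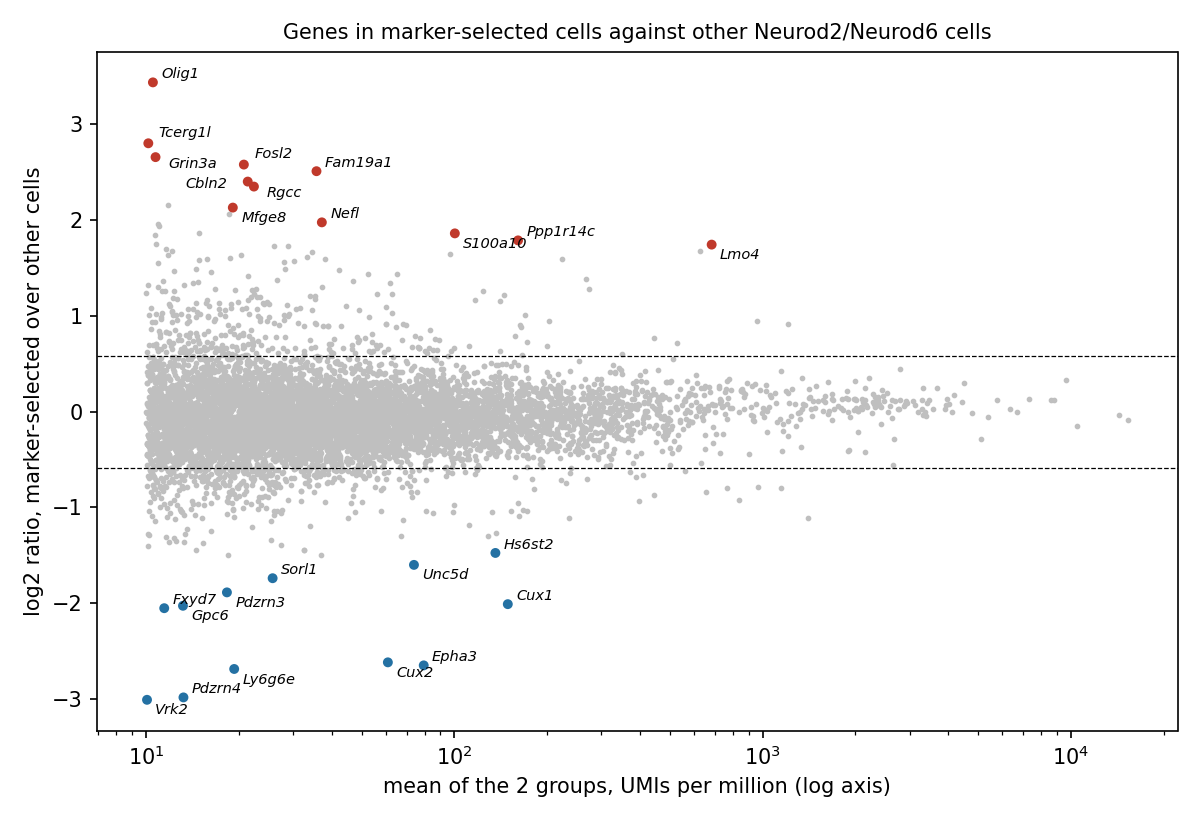
Log2 ratio of layer 5 marker cells over other Neurod2 and Neurod6 cells against mean level (CPM, log axis) for 7975 genes, with dashed lines at 1.5-fold. The genes ranked highest and lowest are coloured, among them Lmo4 at 1.74 and Cux1 at -2.01. Ldb2, at 1.64, is among the grey dots.

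Beside Lmo4, S100a10, Nefl and Tcerg1l, the 12 genes ranked highest by the lower bound of their interval included secreted and synaptic genes. Fam19a1, which encodes a secreted chemokine-like protein, stood at 60.7 CPM in layer 5 marker cells and 10.6 CPM in the others (2.51), in 29 layer 5 marker cells. Cbln2, which encodes a synapse organizer of the cerebellin family, stood at 35.9 CPM in layer 5 marker cells and 6.79 CPM in the others (interval of the log2 ratio 1.97 to 2.84), in 41 layer 5 marker cells. The AP-1 factor gene Fosl2 had a ratio of 2.58, the NMDA receptor subunit gene Grin3a 2.66 and the cell cycle regulator gene Rgcc 2.35. Ppp1r14c, which encodes an inhibitor of protein phosphatase 1, stood at 250 CPM in layer 5 marker cells and 72.2 CPM in the others (1.79) and was found in 65.3% of layer 5 marker cells and 23.8% of the others, or 39.4% and 11.8% after thinning, with 18.2% in inhibitory cells before it.

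The remaining 2 of the 12 rested on few cells. Olig1, an oligodendrocyte lineage factor gene, stood at 19.3 CPM in layer 5 marker cells and 1.77 CPM in the others (3.44), but 3 of the 8 layer 5 marker cells that had it held 90.4% of its UMIs. Mfge8, which encodes a secreted protein of astroglia, stood at 31.1 and 7.10 CPM in the same order (2.13), with 70.2% of its UMIs in 3 cells. Without cells that also carried markers of another type, described below, Olig1 had a ratio of 0.68 and Mfge8 one of -0.45.

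At the low end stood Epha3, Cux2, Cux1 and Unc5d, together with genes of cell surface and sorting. Pdzrn4 and Pdzrn3, which encode ubiquitin ligases with PDZ domains, had ratios of -2.99 and -1.89, and the kinase gene Vrk2 -3.01. Hs6st2, which encodes a heparan sulfate sulfotransferase, stood at 71.8 CPM in layer 5 marker cells and 200 CPM in the others (-1.48). The glypican gene Gpc6 had a ratio of -2.03, the sorting receptor gene Sorl1 -1.74 and Ly6g6e -2.69. Fxyd7, which encodes a regulator of the sodium pump, stood at 4.44 CPM in layer 5 marker cells and 18.4 CPM in the others (-2.05). Layer 6 marker cells, which were among those others, had 129 CPM of Fxyd7, and its ratio was 0.85 without them.

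Set against the 178 layer 6 marker cells, the layer 5 marker cells had less of every layer 6 and subplate gene compared. All 6 layer 6 genes and all 4 subplate genes outside the rule were called lower, where 11.1% of 8111 genes were called lower and 5.55% higher. The rule left out cells with several layer 6 genes, so lower layer 6 levels follow in part from the choice. The T-box gene Tbr1, which sets layer 6 identity, stood at 86.3 CPM in layer 5 marker cells and 219 CPM in layer 6 marker cells (-1.35). The forkhead gene Foxp2 stood at 5.92 and 64.1 CPM (-3.44), and the Wnt ligand gene Wnt7b at 31.5 and 183 CPM (-2.54), layer 5 marker cells before layer 6 marker cells. With TMM scaling, which offsets a difference in the makeup of the RNA, 589 genes were called higher and 715 lower, against 450 and 900 without it.

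Subcerebral genes did not separate the layer 5 marker cells from layer 6 marker cells in 1 direction. Of 19 compared, 4 were called higher and 9 lower, with a median of -0.52, where all genes had -0.06. Bcl11b stood at 97.7 CPM in layer 5 marker cells and 349 CPM (321 to 378) in layer 6 marker cells, a ratio of -1.83 (-2.05 to -1.62), and was found in 24% and 79.8% of them. Sox5 stood at 70.7 CPM in layer 5 marker cells and 266 CPM in layer 6 marker cells (-1.91), and Nefl at 59.2 and 96.5 CPM (-0.70). S100a10, at 157 CPM in layer 5 marker cells and 164 CPM in layer 6 marker cells, and Ldb2, at 147 and 123 CPM, were not called. Diaph3 (0.96), Tcerg1l (1.16), the basic helix-loop-helix gene Bhlhe22 (1.64) and the POU factor gene Pou3f1 (1.71) were called higher in layer 5 marker cells.

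Of the genes that set layer 5 marker cells above layer 6 marker cells, several belonged to the callosal program. Of 12 upper-layer callosal genes, 9 were called higher and 1 lower, with a median of 1.08. Cux1 stood at 59.2 CPM in layer 5 marker cells and 26.3 CPM in layer 6 marker cells (1.17). Lmo4, outside that list, stood at 1053 and 205 CPM in the same order (2.36). Ntf3, which encodes the growth factor neurotrophin-3, ranked highest, with 67.8 CPM in layer 5 marker cells and 2.44 CPM in layer 6 marker cells (4.79, 3.41 to 6.69). Among the lowest were Fxyd7, the neurexophilin gene Nxph4, the imprinted gene Peg10, the receptor activity modifier gene Ramp3 and the lipase gene Mgll. Nxph4, for example, stood at 2.59 CPM in layer 5 marker cells and 73.3 CPM in layer 6 marker cells (-4.82). Of 25 synaptic genes, 2 were called higher and 6 lower, and of 17 ion channel genes 1 and 6.

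The other genes ranked highest over layer 6 marker cells were glial, cycling or newborn genes. Fabp7, the radial glia fatty acid binding protein gene, had a ratio of 3.40 with 72.7% of its UMIs in 3 cells, and the ubiquitin conjugase gene Ube2c one of 5.74 with 80.7% in 3 cells. Hmgb2, Slc1a3 and Neurog2 had ratios of 3.44, 3.85 and 3.46. Without cells that carried markers of another type, Fabp7 stood at 0.96, Hmgb2 at 1.95, Ube2c at 3.25, Slc1a3 at 2.98 and Neurog2 at 3.18.

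Against 872 upper-layer marker cells, the subcerebral genes were farthest apart. These cells had 2 or more of Cux2, Inhba, Unc5d and Pou3f2, which give no result here, no UMI of Eomes or Neurog2, and were neither layer 5 nor layer 6 marker cells. Of 15 subcerebral genes compared, 10 were called higher in layer 5 marker cells and 2 lower, with a median of 1.48, where 6.79% of 7940 genes were called higher and 7.15% lower, with a median of -0.07. Nefl stood at 59.2 CPM in layer 5 marker cells and 2.09 CPM in upper-layer marker cells (4.82, 4.01 to 5.76), S100a10 at 157 and 24.6 CPM (2.68), Ldb2 at 147 and 24.8 CPM (2.57) and Bcl11b at 97.7 and 19.6 CPM (2.32). Of 10 callosal genes, 8 were called lower and 1 higher, with Cux1 at -2.44 and Epha3 at -2.94 among the lower ones. The upper-layer marker cells were chosen by the callosal genes Cux2, Unc5d and Pou3f2 beside Inhba. Lower levels of other callosal genes in layer 5 marker cells may thus follow in part from that choice.

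Neuropeptide genes ranked among the highest in this comparison. Nts (chromosome 10, 102481756 to 102490486), the gene of neurotensin, stood at 266 CPM in layer 5 marker cells and 4.18 CPM in upper-layer marker cells (5.99), but was found in 23 layer 5 marker cells, of which 3 held 61.2% of its UMIs. Layer 6 marker cells had 1064 CPM of Nts. Cck, the gene of cholecystokinin, stood at 337 CPM in layer 5 marker cells and 33.9 CPM in upper-layer marker cells (3.31), and Kctd12, which encodes an auxiliary subunit of GABA-B receptors, at 51.1 and 4.18 CPM (3.61). Fosl2 (5.20) and Ube2c (4.34) were also among the 6 highest, with 80.7% of the Ube2c UMIs of layer 5 marker cells in 3 cells. Without cells that carried markers of another type, Nts stood at 4.93 and Ube2c at 1.97. The lowest were Epha3 (-2.94), Pdzrn4 (-3.36), Ly6g6e (-3.07), Cux1, Vrk2 (-3.32) and Pdzrn3 (-2.38). All upper-layer marker cells also stand among the other cells of the first comparison.

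**Figure D3:**
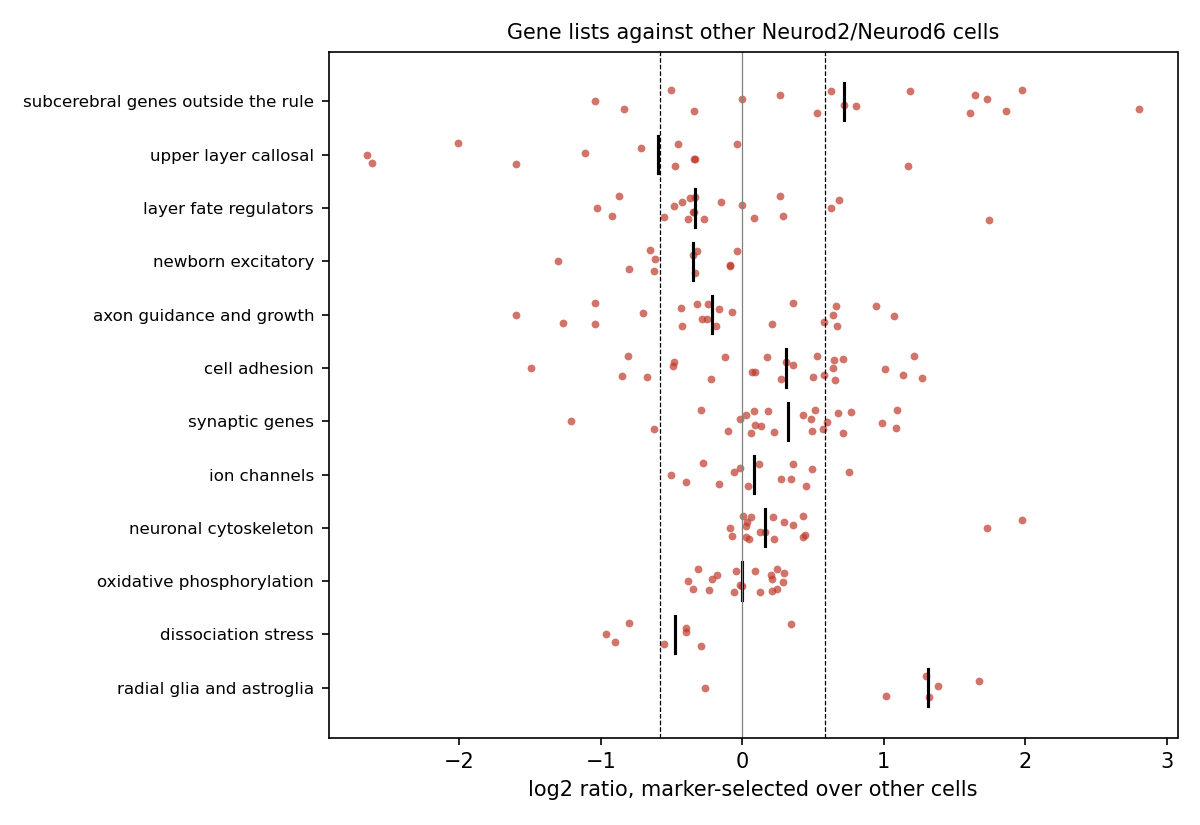
Log2 ratio of layer 5 marker cells over other Neurod2 and Neurod6 cells for the genes of 12 lists, each dot a gene and each bar the list's median. Subcerebral genes outside the rule have a median of 0.72 and upper-layer callosal genes one of -0.60.

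Genes of neuronal maturation differed in part from the other Neurod2 and Neurod6 cells. Of 24 synaptic genes, 7 were called higher and 2 lower, with a median of 0.33, where 4.35% of all genes were called higher and 5.35% lower, with a median of -0.06. The vesicle protein gene Syt4 stood at 654 CPM in layer 5 marker cells and 399 CPM in the others (0.71), the neuroligin gene Nlgn1 at 81.8 and 38.4 CPM (1.09) and the NMDA receptor subunit gene Grin2b at 421 and 278 CPM (0.60). The vesicular glutamate transporter genes parted, with Slc17a7 at 0.68 and Slc17a6 at -1.21. Of 25 cell adhesion genes, 8 were called higher and 4 lower. The protocadherin gene Pcdh17 stood at 203 CPM in layer 5 marker cells and 87.3 CPM in the others (1.21), and the teneurin gene Tenm2 at 226 and 112 CPM (1.01), whereas the cadherin gene Cdh12 had -1.50 and Cntnap2, of the neurexin family, -0.85.

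Of 22 axon guidance and growth genes, 5 were called higher and 5 lower, beside the 4.35% and 5.35% of all genes. The growth cone gene Gap43 stood at 1260 CPM in layer 5 marker cells and 656 CPM in the others (0.95), and the ephrin gene Efna5 at 41.5 and 19.8 CPM (1.07). The contactin gene Cntn2 stood at 80.0 CPM in layer 5 marker cells and 193 CPM in the others (-1.27), and the Slit receptor gene Robo2 at 113 and 232 CPM (-1.04), while its relative Robo1 had 0.67. Of 11 newborn neuron genes, 5 were called lower and 0 higher. Among them the zinc finger gene Insm1 stood at 74.4 CPM in layer 5 marker cells and 184 CPM in the others (-1.30). Against layer 6 marker cells, 7 of the 11 were called higher and 0 lower, where 5.55% of all genes were called higher and 11.1% lower. Against upper-layer marker cells, chosen without Eomes and Neurog2, 1 of 9 was called higher and 1 lower, with a median of -0.10.

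The general neuronal lists had 2 or fewer called genes each, too few to set apart from the 4.35% of all genes called higher and 5.35% called lower. They were 1 of 14 ion channel genes higher (Scn2a, a sodium channel gene, at 0.76), 2 of 19 cytoskeletal genes higher, and 0 of 19 oxidative phosphorylation genes in either direction. Of 8 dissociation stress genes, which tissue handling can induce, 3 were called lower, among them Egr1 at -0.96 and Jun at -0.90.

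Markers of other cell types stood in some of the layer 5 marker cells. Markers of radial glia and astroglia, 8 genes, summed to 682 CPM in layer 5 marker cells and 359 CPM in the others, and 5 of the 6 compared were called higher. Cells with 4 or more of the 8 were 6.61% of layer 5 marker cells and 1.76% of the others. Cells with these or with 2 or more cycling, interneuron or oligodendrocyte lineage markers numbered 20 layer 5 marker cells (8.26%, median 13936.5 UMIs) and 51 others (2.89%). Without them 1 radial glia gene was called higher and 2 lower, 9 subcerebral genes were called higher and 2 lower with a median of 0.65, Lmo4 stood at 1.76, and Bcl11b, at 0.57, was no longer past 1.5-fold. Of other types, 0 layer 5 marker cells had 2 or more markers of microglia, endothelium, mural cells, Cajal-Retzius cells or red blood cells, where 0 of 242 has an upper Clopper-Pearson limit of 1.51%. Microglia markers summed to 0.741 CPM in layer 5 marker cells, with C1qc, Csf1r, P2ry12 and Cx3cr1 at 0. Markers of subplate were found in pairs or more in 4 layer 5 marker cells and those of near-projecting neurons in 2.

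The layer 5 marker cells were not uniform, and differed among themselves by Fezf2 and by Grp. In the 160 cells with Fezf2 over the 82 without, 9 of 19 subcerebral genes were called higher and 0 lower, with a median of 0.46, where 8.11% of 7929 genes were called higher and 5.16% lower. Of 11 newborn neuron genes in the same contrast, 7 were called higher and 0 lower, with a median of 0.91, and 28.1% of cells with Fezf2 had 4 or more of them, against 9.76% of cells without. In the 107 cells with Grp over the 135 without, 2 of 19 were called higher and 8 lower, with a median of -0.54, where 5.88% of 7908 genes were called higher and 9.89% lower. Both contrasts share their cells, and the sharpest reading came from cells with 1 of these genes and not the other. This split was chosen after values were seen. There were 107 cells with Fezf2 and no Grp UMI, 53 with both, 28 with neither and 54 with Grp and no Fezf2 UMI. Cells with Fezf2 alone held 199 of the 264 Bcl11b UMIs of the set. They stood at 165 CPM of Bcl11b, against 58.4 CPM in cells with both, 105 CPM in cells with neither and 0 of 603739 UMIs in the cells with Grp alone. With the cells with Grp alone set to a floor of 3 UMIs, 4.97 CPM, Bcl11b was 33.3-fold higher in cells with Fezf2 alone. The lower bound of the counting interval was 26.8-fold, but it leaves out the spread between cells and is no firm minimum. Bcl11b was found in 42 of the 107 cells with Fezf2 alone, and 3 of them held 24.1% of its UMIs there. Median UMIs were 9328 in cells with Fezf2 alone and 11026 in cells with Grp alone. After thinning, 28 of 107 cells with Fezf2 alone had a Bcl11b UMI, against 0 of 53 cells with Grp alone.

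**Figure D4:**
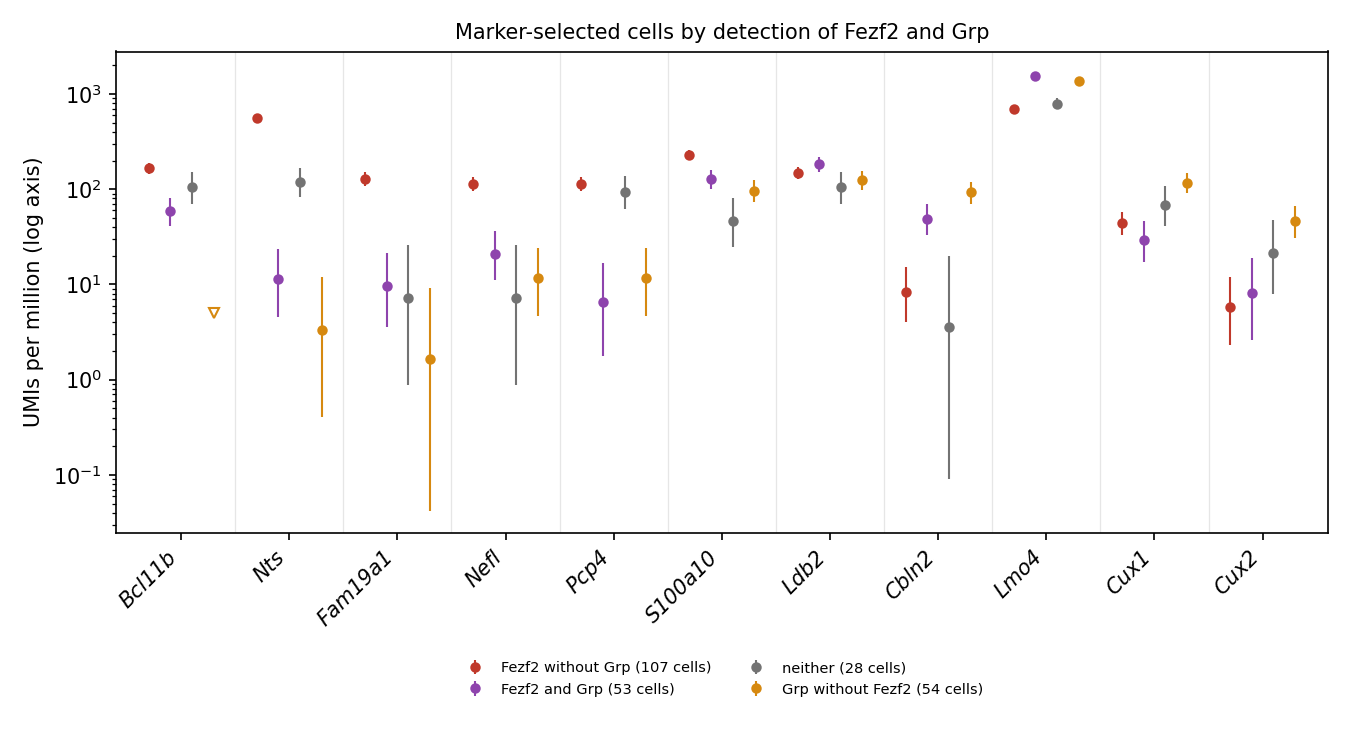
Levels of 11 genes (CPM, log axis) in layer 5 marker cells with Fezf2 alone, both genes, neither gene, and Grp alone, with 95% Poisson bars; an open triangle marks 0 UMIs, drawn at the floor of 3. Bcl11b stands at 165 CPM with Fezf2 alone and at 0 with Grp alone, and Cbln2 at 8.31 and 92.8 CPM.

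Other genes followed the same split. Of 18 subcerebral genes, 8 were called higher and 1 lower in cells with Fezf2 alone over cells with Grp alone, with a median of 0.38, where 14% of 7783 genes were called higher and 7.5% lower, with a median of 0.05. Newborn neuron genes, at 8 of 11 higher and 0 lower with a median of 0.98, and dissociation stress genes, at 4 of 8 higher and 0 lower with a median of 0.51, had higher medians. Their part in the other differences was not tested. Nefl stood at 115 CPM in cells with Fezf2 alone and 11.6 CPM in cells with Grp alone (3.31), Pcp4 at 115 and 11.6 CPM (3.31), Fam19a1 at 129 and 1.66 CPM (6.28, 3.78 to 11.59, with 1 UMI in the cells with Grp alone) and S100a10 at 228 and 96.1 CPM (1.25). S100a10 was found in like shares of cells, 31.8% with Fezf2 alone and 29.6% with Grp alone. With Fezf2 alone, 3 cells held 33.1% of its UMIs. Ldb2 stood at 150 CPM in cells with Fezf2 alone and 124 CPM in cells with Grp alone (0.27, -0.13 to 0.68). Nts stood at 563 and 3.31 CPM in the same order (7.41), but was found in 13 cells with Fezf2 alone, of which 3 held 65.0% of its UMIs.

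The cells with Grp alone had more of another group of genes. Cbln2 stood at 8.31 CPM in cells with Fezf2 alone and 92.8 CPM in cells with Grp alone (-3.48, -4.62 to -2.50) and Lmo4 at 696 and 1380 CPM (-0.99). Cux1 stood at 44.0 CPM in cells with Fezf2 alone and 116 CPM in cells with Grp alone (-1.40), and the receptor phosphatase gene Ptprt had a ratio of -2.54. Markers of other cell types ran with this split as well. Of the cells with Fezf2 alone 15 carried such markers, against 2 with Grp alone, and all 6 radial glia genes compared were higher in cells with Fezf2 alone. Without these cells Bcl11b stood at 168 CPM in 92 cells with Fezf2 alone and at 0 UMIs in 52 cells with Grp alone, Fam19a1 had a ratio of 6.45, Cbln2 -3.16 and Lmo4 -0.95, while Nts stood at 264 CPM with Fezf2 alone and 3.47 CPM with Grp alone, with 96.2% of its UMIs with Fezf2 alone in 3 of 7 cells.

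The same split was then made among the other Neurod2 and Neurod6 cells, layer 6 marker cells left out, which the rule had not taken. There 96 cells had Fezf2 alone and 61 Grp alone, with median UMIs of 6056 and 8411. Cbln2 again stood lower with Fezf2 alone, at 4.15 CPM, against 52.2 CPM with Grp alone (-3.65, -6.01 to -1.97). So did Lmo4, at 268 and 1037 CPM (-1.95), Ntf3 (-3.33, -5.03 to -1.99) and Ptprt (-4.72, -10.09 to -2.09). With Fezf2 alone, Cbln2 had 3 UMIs, Ntf3 5 UMIs in 2 cells and Ptprt 1 UMI. Among the layer 5 marker cells Ntf3 had a ratio of -0.98 (-1.46 to -0.50), or -0.59 without cells with markers of other types. In the former, 3 cells held 60.5% of its UMIs with Fezf2 alone. Cux1 had -0.67 in the other cells and -1.40 in the layer 5 marker cells. S100a10 (1.41), Pcp4 (2.02) and Fam19a1 (1.76) again stood higher with Fezf2 alone. S100a10 was nonetheless found in 16.7% of cells with Fezf2 alone and 18.0% of cells with Grp alone. Pcp4 was found in 38.5% and 9.84% of them. Fam19a1 was found in 10 and 5 cells, with 66.0% of its UMIs with Fezf2 alone in 3 cells. Bcl11b stood at 58.1 CPM with Fezf2 alone and 29.6 CPM with Grp alone, a ratio of 0.97 (0.13 to 1.88), where the layer 5 marker cells had 0 UMIs with Grp alone. Nefl did not differ beyond counting error (0.08), and Nts stood at 4.15 CPM with Fezf2 alone and 13.9 CPM with Grp alone (-1.75, -4.30 to 0.31).

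Clustering of all E18 cells without the genes of the rule did not gather the layer 5 marker cells into 1 group. They fell into 14 of 17 clusters, and 161 of the 242 lay in 3 of them. Cluster 12 held 58, which were 52.7% of its 110 cells (43.0 to 62.3), cluster 5 held 60, 31.7% of 189 cells, and cluster 11 held 43, 38.7% of 111 cells. Layer 6 marker cells made up 38 cells of cluster 12. At a coarser resolution of 0.5, with 12 clusters, 201 of the 242 lay in 3 clusters, and at 2, with 26 clusters, 111 did.

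**Figure D5:**
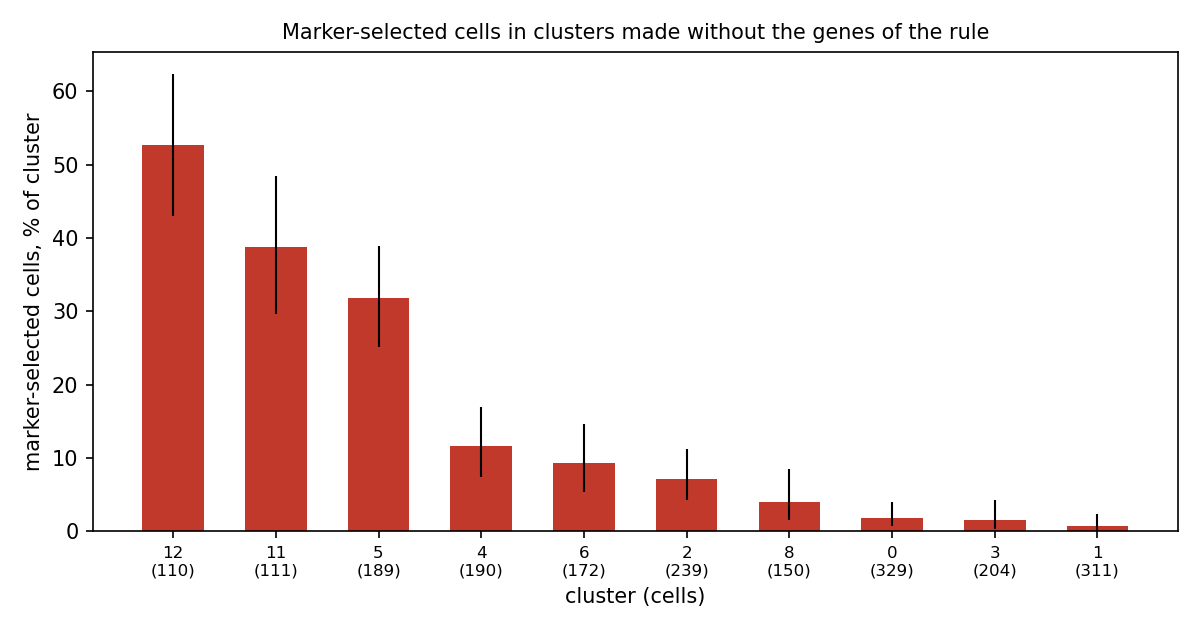
Share of each cluster's cells that are layer 5 marker cells (percent, with 95% Clopper-Pearson bars), for clusters with 50 or more Neurod2 and Neurod6 cells. Clusters 12, 11 and 5 stand highest, at 52.7%, 38.7% and 31.7%.

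The 3 clusters held different layer 5 marker cells. The clustering used variable genes outside the rule, so levels of such genes are a description. In cluster 12 the layer 5 marker cells had 269 CPM of Bcl11b, in cluster 5 they had 4.38 CPM and in cluster 11 they had 1.77 CPM, and 208 of the 264 Bcl11b UMIs of all layer 5 marker cells came from cluster 12. Fam19a1 ran likewise, at 187 CPM in cluster 12, 0 in cluster 5 and 7.07 CPM in cluster 11. Nefl stood at 158, 4.38 and 56.6 CPM in the same order, and S100a10 at 426, 70.0 and 53.1 CPM. In the other Neurod2 and Neurod6 cells Nefl stood at 15 CPM. Ldb2 was more even, at 236, 111 and 186 CPM in clusters 12, 5 and 11. Cbln2 stood at 32.3 CPM in cluster 12, 105 CPM in cluster 5 and 0 in cluster 11, and Ntf3 at 0, 93.3 and 207 CPM. Lmo4 was high in all of them, at 1091, 1581 and 1319 CPM. Of the selecting genes, kept out of the clustering, Fezf2 stood at 338, 67.1 and 93.7 CPM in clusters 12, 5 and 11 and Tshz2 at 128, 21.9 and 210 CPM. Median depth was alike, at 12778.5, 11005 and 12539 UMIs.

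The same rule was applied to the P2 library, from which the cortex had been removed. It passed 32 of 256 cells with enough Neurod2 and Neurod6, 12.5% (8.71 to 17.2), with a median of 21040.5 UMIs. Etv1 was found in 24 of them and Rprm in 27, but Fezf2 in 6, and Bcl11b was found in 23 of the 32 and in 119 of the 224 other P2 cells. Inhibitory cells of that library had Etv1 in 54.7%. Age, dissection, mouse line and library cannot be told apart, so the levels were not compared with E18.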

How the data were processed

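The authors deposited unnormalized UMI counts of genes by cell, made with Cell Ranger 4.0.0 per the file headers and with the build mm10 per the submitters' processing notes. The deposited gene and barcode lists hold names only, recorded as other. How cells were called is not stated there, and no cell annotation was taken from the files. The selected cells and the gene lists were chosen with earlier results of these data known.

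UMIs were summed over the cells of a group and divided by all UMIs of the group (CPM). Ratios are log2 with exact conditional intervals, levels have exact Poisson and shares exact Clopper-Pearson intervals, all at 95% and for counting error only. Genes named beside list members were the 12 highest and 12 lowest against the other Neurod2 and Neurod6 cells, and 6 each way in the other 2 comparisons, ranked by the interval bound nearest 0. The ranking passed over genes of the rule, sex-linked, mitochondrial, haemoglobin and ribosomal protein genes, and predicted genes without a name. Fam19a1, Cbln2, Nts, Ntf3 and Ptprt in the split by Fezf2 and Grp were chosen after their values were seen. Positions are those of the GENCODE annotation of GRCm38.

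Doublets were kept, as the rule has no doublet step. Scrublet, as run in scanpy 1.11.5, called 42 cells (1.60%), and leaving out the highest 5% of its scores was an alternative. Inhibitory cells, used as background for shares, were 99 E18 cells defined by inhibitory markers. Clustering used 2000 variable genes, 30 components, 15 neighbours and Leiden resolution 1 (leidenalg 0.10.2). TMM scaling came from edgeR 4.0.16. On simulated counts of the first comparison, with 7970 genes compared, 100% of 100 doubled genes, 97.7% of 88 halved genes and 0.848% of 7782 unchanged genes were called. The simulated sums had Poisson counting error only, without spread between cells. These shares are therefore no error rate for the calls in the real cells. The depth was 19986915 UMIs at E18 and 42572208 at P2. Some genes are not reported here.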

Additional observations from a re-analysis of the deposited data

Results flagged for a closer look

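The P2 library, which the comparisons did not use, held 32 cells that pass the rule for layer 5 marker cells, although its dissection removed the cortex. Of these, 27 had an EYFP UMI, against 201 of the 224 other P2 cells with enough Neurod2 and Neurod6 and 33.3% of inhibitory P2 cells. Fezf2 was found in 6 of the 32. The count was 13 without Etv1 in the rule and 10 without Rprm. What these cells are was not tested.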

How the results depend on the processing

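The number of layer 5 marker cells was 65 with 3 or more markers, 142 without Fezf2 in the rule, 111 without Rprm and 116 after thinning to 3000 UMIs. The P2 count of 32 was 15 with a mitochondrial limit of 5%, 6 with 3 or more markers, 13 without Etv1 and 10 without Rprm.

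Against the other Neurod2 and Neurod6 cells, 593 genes were called higher and 984 lower with 3 or more markers, 1044 and 1384 after thinning, 2335 and 1465 without a filter beyond 1 UMI in each group, 114 and 146 at 30 CPM, and 127 and 79 at 2-fold. Without Fezf2 in the rule 702 were lower. Against layer 6 marker cells, 1549 were higher and 2627 lower without the filter, 142 and 338 at 30 CPM, and 159 and 340 at 2-fold. Against upper-layer marker cells the counts were 2690 and 1482, 182 and 221, and 248 and 115. These stricter or looser filters change how many genes can be called by their construction.

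The 33 genes followed against the other Neurod2 and Neurod6 cells were mostly those ranked highest or lowest in that comparison. The settings also reuse many of the same cells, so a kept direction was in part built in. Of the 33, 30 kept their direction in all 17 settings that can move single ratios. Among these 30, Bcl11b lay between 0.33 and 2.16, Ldb2 between 1.59 and 2.19, Lmo4 between 1.24 and 1.86, and Cux1 between -2.89 and -1.78. The exceptions were Mfge8 (-2.32 with 3 or more markers, -0.45 without cells with markers of other types), Fabp7 (-1.44 with 3 or more markers, -1.13 after thinning, -0.80 without those cells) and Fxyd7 (0.85 without layer 6 marker cells among the others). Within the set, the log2 ratio of Olig1 in cells with over cells without Fezf2 turned to 0.63 without cells with markers of other types. The causes were not tested.

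No paired analysis was possible because each age has 1 library and all comparisons lie within 1 library. Depth limits the shares of cells with a UMI: Bcl11b, at 97.7 CPM, was seen in 24% of layer 5 marker cells and in 15.4% after thinning.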
